A study of Mus musculus with 75 samples.

Results

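The interleukin-1 (IL-1) family genes described here are 9 genes chosen by symbol: the ligands Il1a, Il1b, Il33 and Il18, the receptor antagonist Il1rn, and the receptor genes Il1r1, Il1r2, Il1rap and Il1rl1. All 9 were present among the 21051 gene symbols counted in untreated and 2 h libraries and the 21076 counted in 24 h libraries. RNA-seq libraries were made with Smart-seq2, a full-length protocol without molecular identifiers, from mouse cells labelled EGC (the labels do not spell out the term) of adult intestine. Every mouse, controls included, carried an eGFP reporter, a green fluorescent protein. How the cells were collected is not given in the sources used here.

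The 22 untreated libraries came from reporter mice: 5 of the colon myenteric plexus, 6 of the small intestinal myenteric plexus, 5 of the colon submucosal plexus and 6 of the small intestinal submucosal plexus. The 16 libraries of the 2 h experiment were myenteric plexus libraries of reporter mice, with 4 libraries per combination of region (colon or small intestine) and injection. Mice received 1 intraperitoneal injection of 2 mg/kg lipopolysaccharide (LPS), a cell wall component of Gram-negative bacteria taken here from E. coli O111:B4, or of phosphate-buffered saline (PBS). The 37 libraries of the 24 h experiment were also myenteric and used the same injections in Gpr37WT reporter mice (wild type at the gene for the receptor Gpr37) and in Gpr37-/- reporter mice. Of 19 wild-type libraries, small intestine had 6 with PBS and 4 with LPS, and colon had 4 with PBS and 5 with LPS. Of 18 Gpr37-/- libraries, small intestine had 4 with PBS and 5 with LPS, and colon had 5 with PBS and 4 with LPS. Both sexes were used in each experiment. At 24 h the colon and small intestinal libraries came in part from the same mice, which are numbered in the labels; for the other libraries the labels name no mouse, so p-values there measure the spread between libraries.

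The IL-1 family is a set of alarm cytokines of innate immunity. IL-1 alpha and IL-1 beta bind the receptor IL1R1, which recruits the accessory chain IL1RAP and signals through MYD88 to NF-kappaB, while the antagonist encoded by Il1rn occupies the same receptor without signalling and the decoy receptor IL1R2 binds IL-1 without signalling. IL-33 signals through IL1RL1 (ST2) with IL1RAP, and IL-18, like IL-1 beta, is cut to its active form by caspase-1 within inflammasomes. In the gut, macrophages and neutrophils are well known sources of IL-1, epithelial cells are a known source of IL-18, and enteric glia can respond to IL-1.

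Il1a, Il1b and Il1rn were the members that rose 2 h after LPS in the small intestine (Il1rn was not called in colon), and all 3 lie on chromosome 2 of GRCm38: Il1a at 129299610-129309972 on the minus strand, Il1b at 129364570-129371139 on the minus strand and Il1rn at 24336853-24351494 on the plus strand. The 250 bases upstream of their RefSeq transcript starts (GRCm38.p6) are shown because they hold the promoters of the members called at 2 h in small intestine. They are written 5′ to 3′ on the strand of the gene, in lower case, with matches to the searched motifs in capitals. RefSeq gives 3 start windows for Il1rn, of which the first and the one farthest downstream are shown; the other one overlaps the latter.
Il1a, chr2:129309973-129310222, minus strand: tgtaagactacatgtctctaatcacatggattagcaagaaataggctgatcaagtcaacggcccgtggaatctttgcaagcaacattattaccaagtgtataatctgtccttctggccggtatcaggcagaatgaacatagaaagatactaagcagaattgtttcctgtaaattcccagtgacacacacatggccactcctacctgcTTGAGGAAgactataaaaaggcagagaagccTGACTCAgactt
Il1b, chr2:129371140-129371389, minus strand: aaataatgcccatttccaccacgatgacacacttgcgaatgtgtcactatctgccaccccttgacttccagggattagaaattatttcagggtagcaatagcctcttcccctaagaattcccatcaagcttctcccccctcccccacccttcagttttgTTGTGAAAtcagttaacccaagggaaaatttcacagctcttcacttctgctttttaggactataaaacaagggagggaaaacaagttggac
Il1rn first window, chr2:24336610-24336859, plus strand: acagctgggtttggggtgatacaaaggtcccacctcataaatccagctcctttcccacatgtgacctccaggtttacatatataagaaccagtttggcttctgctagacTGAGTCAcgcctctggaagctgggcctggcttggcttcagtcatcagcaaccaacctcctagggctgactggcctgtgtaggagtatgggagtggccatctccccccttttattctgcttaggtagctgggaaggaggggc
Il1rn downstream window, chr2:24345121-24345370, plus strand: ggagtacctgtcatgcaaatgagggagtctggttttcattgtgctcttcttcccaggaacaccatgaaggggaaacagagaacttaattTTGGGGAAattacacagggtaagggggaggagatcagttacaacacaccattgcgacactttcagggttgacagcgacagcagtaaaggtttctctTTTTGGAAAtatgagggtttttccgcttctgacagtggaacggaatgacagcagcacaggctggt

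The motifs searched on both strands were the kB consensus of NF-kappaB, TGANTCA for AP-1 and TTNNGNAA for C/EBP factors. The Il1a window held 1 AP-1 match, at positions -12 to -6 from the start, and 1 C/EBP match at -43 to -36. The Il1b window held 1 C/EBP match, at -91 to -84. The first Il1rn window held 1 AP-1 match, at -141 to -135, and the downstream one held 3 C/EBP matches, of which the pair at -65 to -58 and -64 to -57 overlap. None of the 4 windows held a kB match, which says only that these letters are not in this stretch. Over 32851 mouse promoter windows of the same length, 7.25% held a kB match, 6.75% an AP-1 match and 36.8% a C/EBP match, so a C/EBP match is common.

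Untreated libraries held 2547296 to 9002546 counts each, 2 h libraries 1990744 to 7883251 and 24 h libraries 2882539 to 33283346. Gpr37 had 18 counts in all over the 18 Gpr37-/- libraries, where 17 libraries had 3 or fewer, and 1229 over the 19 wild-type libraries. The 4 wild-type libraries with 3 or fewer were all LPS libraries: small intestine of mouse 3 (0 counts) and colon of mice 3 (2), 5 (0) and 8 (0). The small intestinal library of mouse 8 had 100 Gpr37 counts, while for mice 3 and 5 the genotype rests on the label alone. The summed level of 6 enteric glia markers had group medians from 684 to 1866 CPM (counts per 1000000 counts of the library, with library sizes scaled by the TMM method) over the 2 h and 24 h groups, and the summed level of 9 macrophage markers had medians from 327 to 1296 CPM. In the same groups the sum of 5 fibroblast markers had medians from 1864 to 14817 CPM and that of 4 smooth muscle markers from 676 to 22122 CPM. Thus glial markers were present in every group, and so were markers of macrophages, fibroblasts and smooth muscle. Sums over different markers are not shares of cells. Of the 37 libraries at 24 h, mitochondrial genes took a median of 15.4% of counts in the 12 from mice numbered up to 10 and of 4.57% in the 25 from mice numbered 11 and above. In wild-type colon the mice numbered up to 10 were LPS mice 3, 5 and 8, and none had PBS. In wild-type small intestine they were LPS mice 3 and 8 and PBS mouse 9. The LPS comparisons of wild-type mice, and their shares of genes called, are therefore partly mixed with this split. Results of the 9 members at 24 h are therefore also given for mice numbered 11 and above alone where this changed a call. For the genes of the other lists no result in those mice alone is given.

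At 2 h, the ligand genes Il1a and Il1b rose with LPS in both regions and the antagonist gene Il1rn rose in the small intestine. The changes are log2 fold changes ± standard error from edgeR's quasi-likelihood test, and a gene was called at a Benjamini-Hochberg adjusted p under 0.05 over all genes tested. In the small intestine 3 of the 7 members tested were called, all higher, where 1.1% of the 13107 genes tested were called. In the colon 2 of 7 were called, both higher, where 0.778% of genes were called. Il1a, Il1b and Il1rn had few or no counts in most PBS libraries and passed the filter on low counts through their LPS libraries. They could therefore hardly be called lower. The members were also chosen with earlier results of these data known, so these shares are a description and no test. The members' median change was 1.52 in small intestine and 0.77 in colon, against medians over all genes of -0.02 and -0.0022. Il1r2 and Il1rl1 did not pass the filter on low counts at 2 h.

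Il1a, which encodes IL-1 alpha, was at 0, 0.487, 0 and 0 CPM in the PBS libraries of small intestine (1 count in all) and at 76.6, 14.1, 106 and 52.8 CPM in the LPS libraries female 1, male 2, female 3 and male 4. In colon it was at 1.63, 0, 0 and 0 CPM after PBS and at 64.7, 128, 39.4 and 16.9 CPM after LPS, in the same order of libraries. Every LPS library lay above every PBS library in both regions, and the LPS libraries themselves spread widely. The fitted change was 9.56 ± 1.42 in small intestine (adjusted p = 0.000954) and 7.04 ± 1.18 in colon (adjusted p = 0.00527). PBS female 1 of colon held all 7 PBS counts there, and without it the fitted change was 11.25 (adjusted p = 0.00388). Because the small intestinal PBS group rests on 1 count, the fitted value depends on the fit's prior; the ratio of summed counts per depth was 1333, with a 95% counting interval from 239 to 52671. The mean after LPS was the same in both regions at this precision, 62.3 ± 38.8 CPM in small intestine and 62.3 ± 48.0 CPM in colon (SD, n = 4 each).

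Il1b, which encodes the inflammasome-processed IL-1 beta, was at 0, 0, 10.2 and 1.80 CPM after PBS and at 322, 65.3, 410 and 235 CPM after LPS in small intestine. In colon it was at 0, 0, 0.667 and 0 CPM after PBS, which is 2 counts in all, and at 79.8, 107, 91.6 and 78.7 CPM after LPS. No LPS library overlapped a PBS library, and the colon LPS libraries were close to each other (89.3 ± 13.2 CPM) while those of small intestine spread widely (258 ± 147 CPM). The change was 6.33 ± 1.02 in small intestine (adjusted p = 0.00205) and 9.07 ± 1.33 in colon (adjusted p = 0.00178). The larger fitted change in colon went with a lower level after LPS and rested on the 2 counts of its PBS group, for which the ratio was 657 with a 95% counting interval from 182 to 5433.

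Il1rn, whose product blocks IL1R1, had the largest fitted change in small intestine. It was at 0, 0, 0 and 0.120 CPM after PBS (1 count) and at 171, 59.9, 294 and 135 CPM after LPS. The fitted change was 11.1 ± 1.5 (adjusted p = 0.000431), and the ratio of summed counts per depth was 3492 with a 95% counting interval from 626 to 137943. This interval overlaps that of Il1a, which also rests on 1 PBS count, so Il1rn and Il1a are not ranked by it. In colon Il1rn was at 0, 1.02, 3.67 and 0.230 CPM after PBS and at 3.79, 3.41, 58.7 and 40.5 CPM after LPS. The colon LPS libraries fell into a low pair, female 1 and male 2, and a high pair, female 3 and male 4, and male 2 lay below the highest PBS library. The colon change of 4.50 ± 1.07 did not pass over all genes (adjusted p = 0.0763). It did pass with DESeq2 (adjusted p = 0.00111), and with edgeR without PBS female 3 (6.08, adjusted p = 0.0410), without LPS female 1 (4.90, adjusted p = 0.0306) and without LPS male 2 (4.88, adjusted p = 0.0350).

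**Figure D1:**
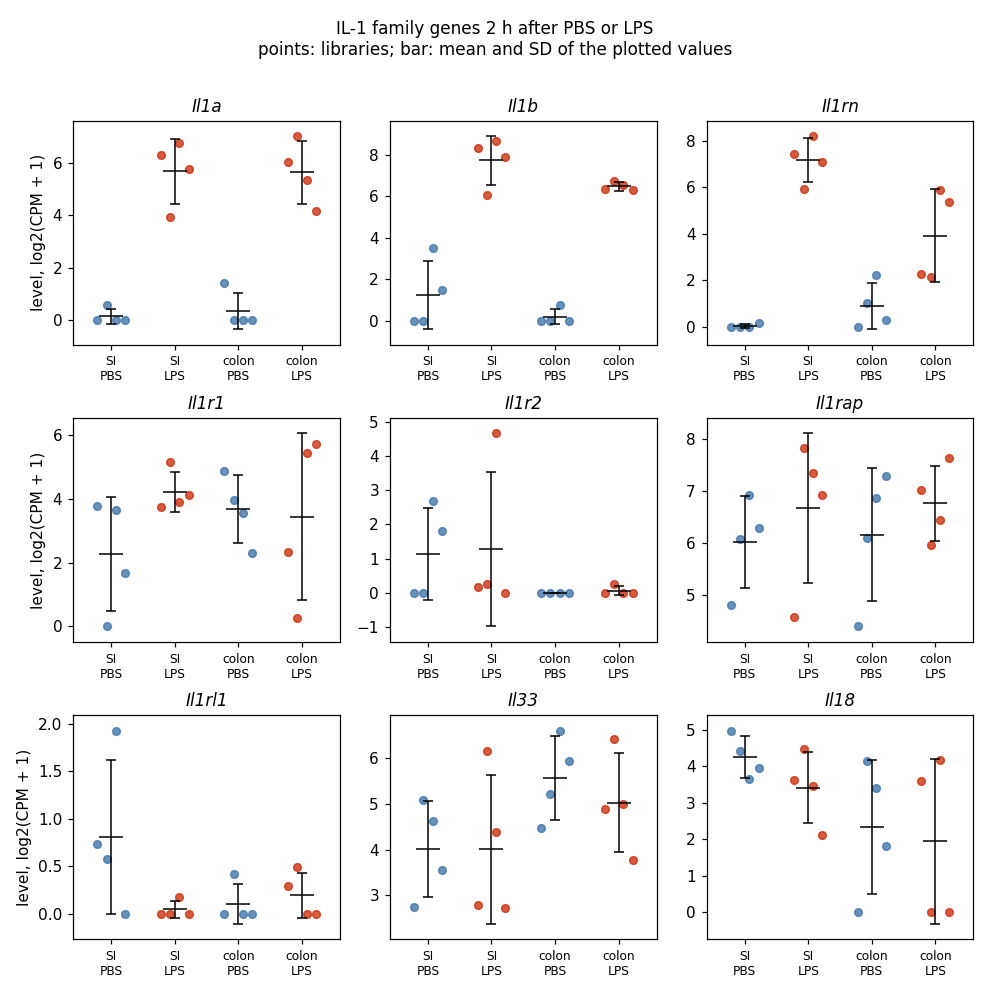
Levels of the 9 IL-1 family genes in the 16 libraries at 2 h as log2(CPM + 1), by region and injection; points are libraries, and bars give the mean and SD of the plotted values. Il1a and Il1b are higher in every LPS library than in any PBS library of the same region, and the colon LPS libraries of Il1rn fall into a low and a high pair.

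The difference between regions in the LPS response was tested as an interaction. No gene was called among the 13107 tested (0%), 452 had an unadjusted p under 0.05, and 0 of the 7 members were called; DESeq2 called 1 member. For Il1rn the difference, colon minus small intestine, was -6.63 ± 1.83 with an edgeR adjusted p of 1.00, and -6.73 with a DESeq2 adjusted p of 0.0377. The response of Il1rn in colon was therefore not shown to differ from that in small intestine by the main test.

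Levels of different genes were compared per kb of the union of all exons annotated for the gene, which is longer than a single transcript where isoforms differ. On this scale Il1b was the most abundant of the 3 in the small intestine after LPS at 135 CPM per kb, followed by Il1a at 31.6 and Il1rn at 29.8. Il1a and Il1rn did not differ beyond their spread between libraries. In colon after LPS, Il1b was at 46.8 CPM per kb and Il1a at 31.5, while Il1rn was at 4.81.

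The receptors were not called at 2 h. Il1r1, the signalling IL-1 receptor, was at 6.60 ± 6.45 CPM after PBS and 19.1 ± 10.2 after LPS in small intestine, and at 14.4 ± 10.2 and 24.5 ± 26.2 in colon. Il1rap, the shared accessory chain, was at 72.6 ± 38.3 and 132 ± 84.8 CPM in small intestine and 89.2 ± 58.1 and 118 ± 59.6 in colon. The groups overlapped for these receptors, with adjusted p = 1 in each case. The decoy Il1r2 was at 0.136, 0.201, 24.3 and 0 CPM after LPS in small intestine, at 0, 0, 5.42 and 2.52 CPM after PBS there, and at most 0.200 CPM in colon. The IL-33 receptor gene Il1rl1 did not exceed 2.81 CPM in any 2 h library. The ligand genes Il33 (18.4 ± 12.5 and 25.3 ± 30.5 CPM after PBS and LPS in small intestine, 53.5 ± 32.8 and 39.3 ± 31.3 in colon) and Il18 (19.2 ± 8.35 and 11.4 ± 7.34, 7.21 ± 7.51 and 7.00 ± 8.41) also overlapped between injections, with adjusted p = 1.

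In bulk libraries such as these, fewer cells of a type and less RNA per cell cannot be told apart, and neither can more cells and more RNA per cell. At 2 h none of the tested markers of macrophages (9 tested), enteric glia (6), epithelium (5) or neutrophils (3) was called in either region. In small intestine 1 of 3 tested markers of B and plasma cells was called higher, and 0 of 3 in colon. The B and plasma cell sum over 4 markers was 18.6, 12.7, 8.03 and 15.6 CPM after PBS and 11.9, 294, 919 and 99.1 CPM after LPS in small intestine, in the order female 1, male 2, female 3 and male 4. The macrophage sum ran from 364 to 2123 CPM after PBS and from 303 to 1505 after LPS in small intestine, and from 349 to 1794 and from 243 to 689 in colon. The neutrophil sum in small intestine had medians of 9.07 CPM after PBS and 12.0 after LPS; it reached 159 in LPS female 1 and was from 8.64 to 14.4 CPM in the other 3 LPS libraries. LPS female 3, the library with the highest Il1a and Il1b, had a neutrophil sum of 9.62 CPM. In colon the neutrophil sum ran from 0.919 to 7.67 CPM after PBS and from 0 to 8.25 after LPS, with medians of 2.65 and 3.44 CPM. The part of these cell types in the 2 h values of Il1a, Il1b and Il1rn was not tested.

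At 24 h Il1rn and the decoy receptor gene Il1r2 were higher with LPS in the small intestine of wild-type mice, and Il1a and Il1b were not called. The 2 experiments were normalized separately and no test was made between times. In wild-type mice 2 of 9 members were called in small intestine, where 7.17% of 14903 genes were called, and 1 of 9 in colon, where 7.96% were. In Gpr37-/- mice 1 of 9 was called in each region, where 0.718% of genes were called in small intestine and 0.718% in colon. All 5 calls were in the direction of higher with LPS. Those of Il1rn and Il1r2 were against PBS groups in which most libraries had few or no counts. A call of lower was hardly possible there, so the shared direction is no result in itself. The members' median change was 1.08 in wild-type small intestine, 1.46 in wild-type colon, 0.72 in Gpr37-/- small intestine and 0.35 in Gpr37-/- colon, against medians over all genes from -0.13 to -0.03.

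In wild-type small intestine, Il1rn was at 0 in 4 PBS mice (19, 22, 23 and 24), at 0.801 CPM in mouse 9 and at 4.64 in mouse 14. After LPS it was at 117 CPM in mouse 3, 173 in mouse 8, 55.7 in mouse 13 and 1.06 in mouse 16. Thus 3 of the 4 LPS mice lay far above PBS and mouse 16 lay within the PBS range. The change was 6.49 ± 1.73 (adjusted p = 0.0175). In mice numbered 11 and above alone it was 4.88 (adjusted p = 0.106).

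Il1r2, which encodes the non-signalling decoy receptor, was at 0 to 1.96 CPM in the 6 PBS mice, with a mean of 0.426 ± 0.768. It was at 16.2, 25.8, 47.2 and 4.13 CPM in LPS mice 3, 8, 13 and 16, and no LPS mouse overlapped PBS. The change was 5.65 ± 1.54 (adjusted p = 0.0203), and 5.69 (adjusted p = 0.0582) in mice numbered 11 and above alone. As for Il1rn, mouse 16 was the lowest of the LPS mice.

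In the small intestine of Gpr37-/- mice, Il1r2 was at 0.198, 0, 0.0311 and 0.132 CPM after PBS (4 counts in all) and at 1.38, 118, 20.4, 29.2 and 0.660 CPM in LPS mice 11, 17, 10, 6 and 21. All 5 LPS mice lay above PBS, over a wide range, with mice 11 and 21 close to PBS. The change was 8.54 ± 2.13 (adjusted p = 0.0461). This call was lost when LPS mouse 6, 10 or 17 or PBS mouse 7, 12, 15 or 20 was left out, with adjusted p up to 0.150 and changes from 7.14 to 9.28. In mice numbered 11 and above alone the change was 9.17 (adjusted p = 0.129). Il1rn was at 0, 3.64, 0.0622 and 0 CPM after PBS and at 33.4, 96.4, 26.1, 64.5 and 5.40 CPM after LPS in these mice, again without overlap. Its change of 5.59 ± 1.96 did not pass (adjusted p = 0.198).

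In wild-type colon the called member was Il18. It was at 2.79, 3.86, 3.79 and 3.86 CPM in the PBS mice and at 1.46, 3.00, 46.0, 0 and 213 CPM in LPS mice 13, 16, 3, 5 and 8. Only mice 3 and 8, whose colon libraries had 2 and 0 Gpr37 counts, lay above PBS; mice 5 and 13 lay below it. The change of 3.88 ± 1.20 (adjusted p = 0.0419) became 1.81 (adjusted p = 0.297) without mouse 8 and 3.92 (adjusted p = 0.0554) without mouse 3, and the call was also lost without any 1 of the PBS mice 14, 19, 22 or 24. In mice numbered 11 and above alone, which leaves out mice 3, 5 and 8, the change was -0.57 (adjusted p = 0.757). The summed level of 5 epithelium markers was 3239 CPM in mouse 3 and 4708 in mouse 8, against 4.55 to 6.19 CPM in the other LPS mice; its part in the Il18 values was not tested.

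Il1rn and Il1r2 were not called in wild-type colon. Il1rn was at 5.81, 0, 1.90 and 0 CPM after PBS and at 40.8, 36.9, 174, 5.23 and 118 CPM in LPS mice 13, 16, 3, 5 and 8, of which mouse 5 fell within the PBS range. The change was 5.29 ± 1.92 (adjusted p = 0.0780). Il1r2 was at 1.94, 0.113, 2.56 and 0 CPM after PBS and at 16.0, 2.52, 37.7, 0 and 14.6 CPM after LPS, a change of 3.57 ± 1.62 (adjusted p = 0.162).

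In Gpr37-/- colon Il1r2 had 1 count in the 5 PBS libraries (0.121 CPM in mouse 1) and was at 0, 31.6, 0 and 19.6 CPM in LPS mice 11, 17, 2 and 21. Only 2 of the 4 LPS mice had any counts. The change was 8.40 ± 2.09 (adjusted p = 0.0464), and the ratio of summed counts per depth was 481 with a 95% counting interval from 85.7 to 19036. The call was lost without LPS mouse 2, 17 or 21 and without any 1 of the PBS mice 1, 7, 12, 15 and 20, with adjusted p up to 0.122. In mice numbered 11 and above alone the change was 10.6 (adjusted p = 0.180). Il1rn in the same libraries was at 0, 3.03, 0, 83.2 and 0 CPM after PBS, where mouse 20 stood above all others, and at 5.24, 33.9, 51.2 and 26.3 CPM after LPS (adjusted p = 0.907).

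Il18 in Gpr37-/- colon was lower in every LPS library (1.85, 4.27, 3.75 and 3.98 CPM) than in any PBS library (7.53, 9.27, 9.23, 154 and 21.0 CPM in mice 12, 15, 1, 20 and 7). The change of -3.55 ± 1.19 was not called (adjusted p = 0.191); in mice numbered 11 and above alone it was -4.10 (adjusted p = 0.0415). Mouse 20, which had the highest Il18, also had an epithelium marker sum of 4674 CPM, against 9.27 to 269 in the other PBS mice. In the small intestine Il18 was at 33.2 ± 18.8 CPM after PBS and 8.00 ± 3.28 after LPS in wild-type mice (-2.05 ± 1.08, adjusted p = 0.269). It was at 34.6 ± 27.4 and 10.7 ± 6.11 CPM in Gpr37-/- mice (adjusted p = 0.593).

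**Figure D2:**
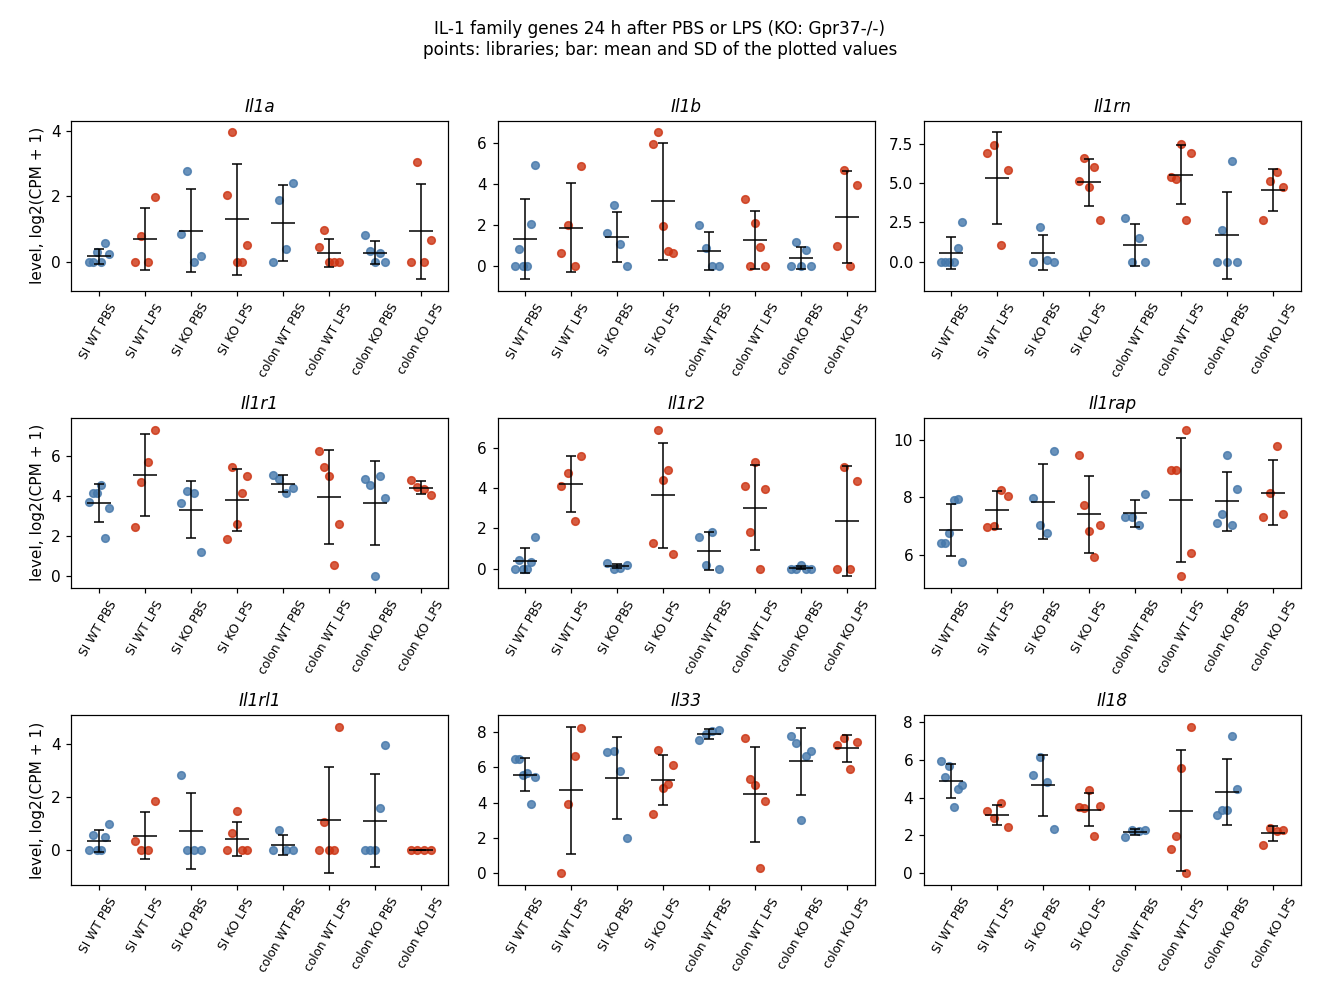
Levels of the 9 IL-1 family genes in the 37 libraries at 24 h as log2(CPM + 1), by genotype, region and injection; points are libraries, and bars give the mean and SD of the plotted values. Il1rn and Il1r2 are low in most PBS libraries and scattered over a wide range in the LPS libraries. Il1rn reaches 83.2 CPM in 1 PBS library of Gpr37-/- colon.

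Markers of neutrophils, the short-lived granulocytes recruited to inflamed tissue, were among those that changed with LPS at 24 h. In wild-type small intestine the neutrophil sum over 10 markers was 757, 890, 858 and 19.2 CPM in LPS mice 3, 8, 13 and 16, against 2.05 to 20.0 CPM after PBS, and 5 of the 9 neutrophil markers tested were called higher. Ly6g and Cxcr2, which mark neutrophils, were at 0 in all 6 PBS libraries of that group. Mouse 16, with a neutrophil sum within the PBS range, was the mouse with Il1rn at 1.06 CPM. In wild-type colon the neutrophil sum was 69.5, 15.0, 2333, 13.4 and 1969 CPM in LPS mice 13, 16, 3, 5 and 8, against 1.06 to 151 after PBS, and 2 of 9 markers were called higher. There mouse 16 had Il1rn at 36.9 CPM with a low neutrophil sum.

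In Gpr37-/- small intestine the neutrophil sum was 42.1, 1856, 206, 150 and 11.8 CPM in LPS mice 11, 17, 10, 6 and 21, against 0.661 to 5.69 after PBS, and 1 of 9 markers was called higher. The order of Il1r2 followed mouse 17 first and mouse 21 last in the same way. In Gpr37-/- colon the neutrophil sum was 5.08, 81.4, 321 and 507 CPM in LPS mice 11, 17, 2 and 21, against 0.243 to 59.9 after PBS, and 2 of 9 markers were called higher. Mouse 2 there had a neutrophil sum of 321 CPM and no Il1r2 count. Of the other 13 marker lists, wild-type small intestine had 1 of 5 monocyte and 1 of 6 glia markers called higher and 2 of 5 fibroblast and 1 of 9 macrophage markers called lower. Wild-type colon had 2 of 5 fibroblast, 1 of 4 endothelium and 1 of 6 glia markers called lower, and in Gpr37-/- mice no marker outside the neutrophil list was called. The part of these cell types in the Il1rn and Il1r2 results was not tested.

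**Figure D3:**
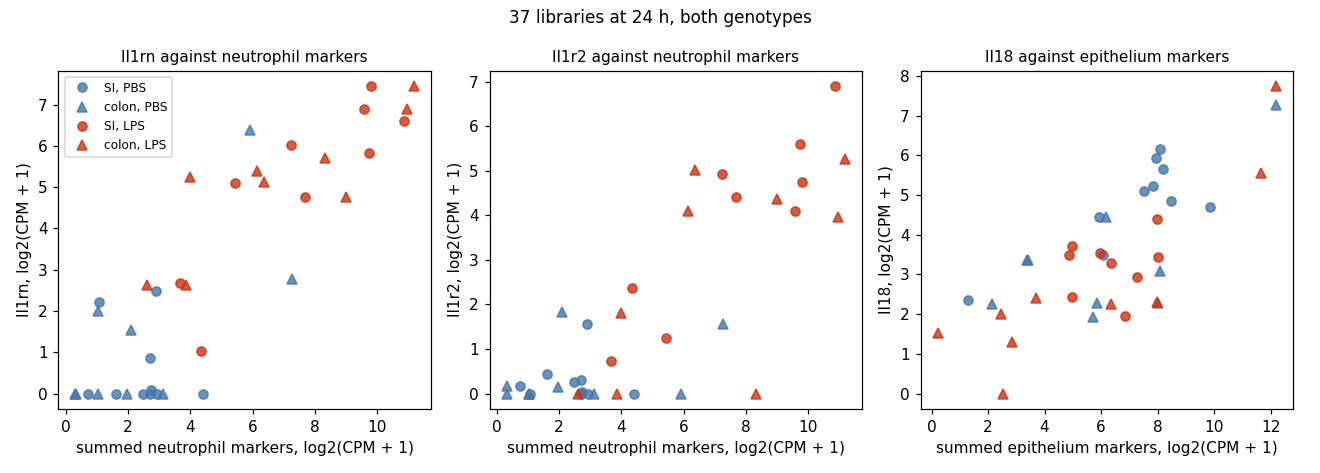
Il1rn and Il1r2 against the summed level of the neutrophil markers, and Il18 against that of the epithelium markers, in the 37 libraries at 24 h, each as log2(CPM + 1); points are libraries. Il18 above 40 CPM in colon is found in mice 3 and 8 after LPS and mouse 20 after PBS, the colon libraries with epithelium marker sums of 3239 CPM and above.

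Neither agonist gene was called at 24 h. Il1a did not exceed 14.5 CPM in any of the 37 libraries (adjusted p from 0.403 to 0.908 over the 4 LPS comparisons). Il1b was at 5.50 ± 11.6 CPM after PBS and 7.91 ± 13.5 after LPS in wild-type small intestine (adjusted p = 0.913) and at 0.925 ± 1.37 and 2.59 ± 3.69 in wild-type colon (adjusted p = 0.698). In Gpr37-/- mice it was at 2.48 ± 2.98 and 31.2 ± 42.2 CPM in small intestine (adjusted p = 0.545), and LPS mice 11 and 17 at 61.2 and 90.8 CPM made that mean while the other 3 did not exceed 2.86. In Gpr37-/- colon it was at 0.386 ± 0.565 and 9.88 ± 11.6 CPM (adjusted p = 0.368).

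Il33, which encodes the nuclear alarmin IL-33, was at 183, 230, 267 and 277 CPM after PBS in wild-type colon and at 204, 39.1, 30.9, 0.227 and 15.8 CPM in LPS mice 13, 16, 3, 5 and 8. All LPS mice but mouse 13 lay below PBS, and the comparison did not pass (adjusted p = 0.238). Mice 3, 5 and 8, with the lowest values, were the only mice numbered up to 10 in this comparison. For them LPS and the mouse number cannot be told apart. In Gpr37-/- colon it was at 121 ± 78.7 CPM after PBS and 145 ± 60.6 after LPS. In small intestine it was at 54.3 ± 27.8 and 101 ± 134 CPM in wild-type and 73.3 ± 55.4 and 53.1 ± 46.7 CPM in Gpr37-/- mice, with wide overlap. Its receptor gene Il1rl1 was at 0 in most libraries at 24 h, and the highest values were 24.3 CPM in wild-type LPS mouse 8 and 14.9 CPM in Gpr37-/- PBS mouse 7, both of colon.

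Il1r1 in wild-type small intestine was at 13.3 ± 6.74 CPM after PBS and at 4.36, 24.7, 156 and 51.2 CPM in LPS mice 3, 8, 13 and 16 (adjusted p = 0.168). In mice numbered 11 and above alone, where both LPS mice lay above all PBS mice, the change was 2.82 and was called (adjusted p = 0.00294). Elsewhere its means lay between 11.8 and 30.5 CPM and overlapped between injections. Il1rap ranged from 37.3 to 1310 CPM over the libraries at 24 h without a call; the highest value was in wild-type colon after LPS, in mouse 5, where the 5 LPS libraries averaged 480 ± 514 CPM against 180 ± 64.0 after PBS.

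**Figure D4:**
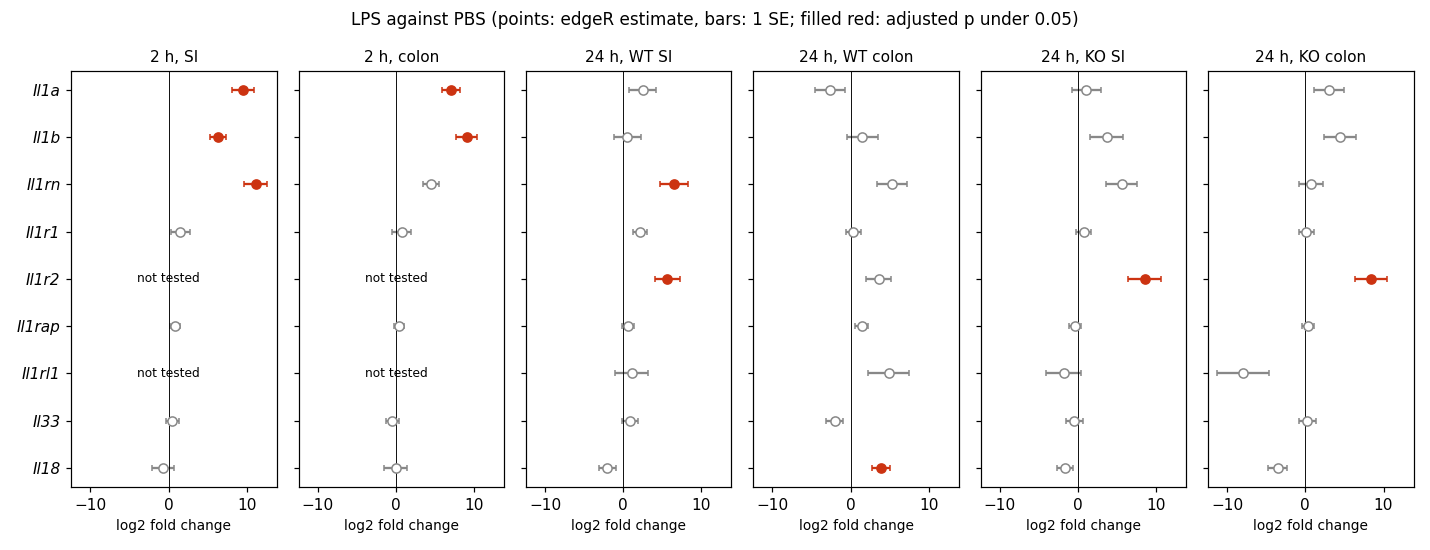
Log2 fold change of LPS against PBS with 1 standard error for each member tested at 2 h and at 24 h, by region and genotype; filled red points are called at an adjusted p under 0.05. The called points are Il1a, Il1b and Il1rn at 2 h and Il1rn, Il1r2 and Il18 at 24 h, all to the right of 0.

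The genotype comparisons asked whether the members differed between Gpr37-/- and wild-type mice or responded differently to LPS. Of the 9 members 0 were called in each of 6 such comparisons with edgeR. For the interaction of genotype and LPS the share of genes called was 0% in small intestine and 0% in colon, with 578 and 2009 genes at an unadjusted p under 0.05. For Gpr37-/- against wild type the share was 0.0134% after LPS in small intestine, 0.429% after LPS in colon, 0% after PBS in small intestine and 0% after PBS in colon, with 1137, 2448, 256 and 629 genes at an unadjusted p under 0.05. DESeq2 called 2 members in the colon interaction, 2 after LPS in colon and 0 in the other 4 comparisons.

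The member with the smallest edgeR adjusted p for a genotype difference in LPS response was Il18 in colon, where the interaction was -7.42 ± 1.69 with an edgeR adjusted p of 0.120. It combines the wild-type LPS values of mice 3 and 8 and the Gpr37-/- PBS value of mouse 20, the libraries with high epithelium marker sums. DESeq2 called it (adjusted p = 2.34e-05). For Gpr37-/- against wild type after LPS in colon, the Il18 difference was -3.93 ± 1.21 (edgeR adjusted p = 0.122) and was called by DESeq2 (-4.06, adjusted p = 0.0037); in mice numbered 11 and above alone it was 0.46 (edgeR adjusted p = 0.874), and the interaction was -3.53 (edgeR adjusted p = 0.240). DESeq2 called the interaction of Il1rl1 in colon as well (adjusted p = 2.51e-06, against 0.192 by edgeR). All 4 Gpr37-/- LPS libraries of colon had no Il1rl1 count, so its fitted value is no bound, and the other groups rested mainly on wild-type LPS mouse 8 and Gpr37-/- PBS mouse 7. After PBS, Il18 in colon was higher in every Gpr37-/- library (7.53 to 154 CPM) than in any wild-type library (2.79 to 3.86 CPM), and the edgeR adjusted p was 1. The call of Il1r2 in Gpr37-/- colon and not in wild-type colon is not shown to be a difference between the genotypes, since the interaction was not called.

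In untreated mice most members were higher in the submucosal than in the myenteric plexus libraries, in both regions. In colon 5 of 9 members were called, all higher in the submucosal plexus, where 21.8% of the 14090 genes tested were called. In small intestine 8 of 9 were called, 7 higher and 1 lower, where 43.5% were called. The members' median log2 difference was 4.46 in colon and 3.51 in small intestine, against -0.0057 and 0.06 over all genes; with the 1 member that had no counts in a group set at its bound, the colon median was also 4.46.

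Il1b in colon was at 0.217, 0, 1.10, 0.164 and 0.175 CPM in the myenteric libraries and at 112, 2.09, 111, 139 and 104 CPM in the submucosal libraries male 1, male 3 and female 1 to 3. Every submucosal library lay above every myenteric library, and male 3 stood far below the other 4. The difference was 7.78 ± 1.29 (adjusted p = 0.000414). In small intestine Il1b was at 2.57 ± 2.88 CPM in the myenteric plexus (n = 6) and 54.4 ± 44.0 in the submucosal plexus (n = 6), with overlap, a difference of 4.45 ± 0.98 (adjusted p = 0.00096).

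Il1rn was at 2.43 ± 3.33 CPM in colon myenteric and 59.1 ± 33.6 in colon submucosal libraries (4.60 ± 1.14, adjusted p = 0.00701). In small intestine it was at 0.649 ± 1.38 and 33.7 ± 23.5 CPM (5.80 ± 1.16, adjusted p = 0.000437). In both regions the submucosal libraries did not overlap the myenteric ones. Il1a was low in colon, at 0.203 ± 0.396 and 4.04 ± 5.27 CPM (adjusted p = 0.100). In small intestine it was at 1.03 ± 2.39 and 23.0 ± 29.6 CPM (4.39 ± 1.55, adjusted p = 0.0259), where submucosal male 2 reached 73.9 CPM and males 1 and 3 were at 0; without male 2 the adjusted p was 0.0825, and with the replicate number as a block it was 0.0672. Myenteric male 3 held 39 of the 40 myenteric counts, and without it the difference was 8.50 (adjusted p = 0.00175).

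Among the receptors, Il1r2 had 2 counts in the colon myenteric libraries and a mean of 14.6 ± 11.8 CPM in the submucosal ones (7.29 ± 1.51, adjusted p = 0.00208), a ratio of summed counts per depth of 194 with a 95% counting interval from 53.4 to 1609. Submucosal male 3 was at 0, so the groups overlapped, and the other 4 submucosal libraries, at 6.98 to 29.9 CPM, lay above every myenteric one. In small intestine it was at 2.30 ± 3.25 and 43.5 ± 17.7 CPM (4.29 ± 1.04, adjusted p = 0.00223). Il1rl1 had no counts in the 5 colon myenteric libraries and was at 4.77 ± 5.41 CPM in the submucosal ones, which is at least 54.9-fold higher when 3 counts over the group are taken as the floor (adjusted p = 0.0102). In small intestine Il1rl1 was at 0.309 ± 0.757 and 4.04 ± 5.59 CPM (3.51 ± 1.35, adjusted p = 0.0435). That call rests on few counts: it was lost in 8 of the 12 fits that left out a library, which were those without myenteric males 1, 2 and 3 and females 1 and 2 and submucosal females 1, 2 and 3, with adjusted p up to 0.160. Myenteric female 3 held all 13 myenteric counts, and without it the difference was 7.49 (adjusted p = 0.00451).

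Il1rap went the other way. In small intestine it was at 107, 81.1, 214, 95.9, 148 and 273 CPM in the myenteric libraries and at 23.7, 39.4, 19.1, 19.9, 33.6 and 48.3 CPM in the submucosal ones, lower in every library (-2.32 ± 0.44, adjusted p = 0.000273). In colon it was at 125 ± 42.0 and 65.7 ± 52.9 CPM with overlap (-0.93, adjusted p = 0.158); with the replicate number as a block the difference was called (-1.06, adjusted p = 0.0435). Il1r1 was at 9.89 ± 3.84 and 16.9 ± 7.10 CPM in small intestine (0.77 ± 0.31, adjusted p = 0.0523) and at 17.2 ± 5.03 and 28.7 ± 9.09 CPM in colon.

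Il18 was higher in the submucosal plexus in colon, at 49.6 ± 29.0 against 16.3 ± 9.99 CPM (1.60 ± 0.51, adjusted p = 0.0285), and in small intestine, at 31.4 ± 14.8 against 11.8 ± 7.03 CPM (1.42 ± 0.47, adjusted p = 0.0177). The colon call was lost without myenteric male 2, male 3 or female 2 or submucosal male 3 or female 1, with adjusted p up to 0.0835. Il33 was higher in the submucosal plexus of small intestine, at 58.4 ± 60.1 against 17.9 ± 17.0 CPM (1.69 ± 0.61, adjusted p = 0.0274). That call was lost without myenteric male 2, male 3, female 1 or female 2 or submucosal male 2; without the last the difference was 0.96 (adjusted p = 0.167). In colon Il33 was lower in every submucosal library, at 35.7 ± 12.8 against 76.6 ± 27.7 CPM, without a call (adjusted p = 0.238).

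The mitochondrial share of counts and markers of several cell types differed between the layers. Mitochondrial genes took 11.6 to 18.8% of counts in small intestinal myenteric and 2.84 to 9.43% in submucosal libraries, without overlap, and 5.35 to 16.5% and 4.02 to 7.18% in colon. The enteric glia sum had medians of 1519 CPM in myenteric and 332 in submucosal libraries of colon, and of 1664 and 239 in small intestine; 2 of 6 glia markers were called lower in colon and 6 of 6 in small intestine. The macrophage sum had medians of 227 and 3091 CPM in colon, with 8 of 9 markers called higher, and of 916 and 7842 in small intestine, with 9 of 9 called higher. The epithelium sum had medians of 56.2 and 2090 CPM in colon and 23.8 and 1166 in small intestine, with 2 of 5 and 5 of 5 markers called higher. Of the B and plasma cell markers 4 of 4 were called higher in each region, with median sums of 32.2 and 23470 CPM in colon and 17.8 and 31110 in small intestine. Also called higher, in colon and small intestine, were 5 and 6 of 6 T cell and innate lymphoid cell markers, 5 and 4 of 5 monocyte, 4 and 3 of 5 dendritic cell and 2 and 1 of 4 tested neutrophil markers. Called lower were 4 of 4 smooth muscle and 4 of 4 mesothelium markers in each region, 3 and 5 of 5 neuron markers, 0 and 4 of 4 endothelium markers and 0 and 1 of 5 monocyte markers, while 1 of 5 fibroblast markers was lower in colon and 1 higher in small intestine. Submucosal male 3 of colon, the library with Il1b at 2.09 CPM, had a macrophage sum of 112 CPM. The part of these cells, and of the mitochondrial share, in the layer differences of the members was not tested.

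Between colon and small intestine no member was called. In the myenteric plexus 3.19% of genes were called and 0 of 9 members, with DESeq2 calling 2 members. Il33 was at 107, 106, 51.7, 60.5 and 57.4 CPM in colon and at 39.8, 12.7, 8.33, 3.10, 4.45 and 39.0 CPM in small intestine, without overlap, and its difference of 2.08 ± 0.63 did not pass (edgeR adjusted p = 0.0722). In the same comparison 3 of 5 fibroblast and 1 of 4 smooth muscle markers were called higher in colon, and 5 of 5 neuron and 1 of 9 macrophage markers lower; their part in the Il33 values was not tested. In the submucosal plexus 5.18% of genes were called and 0 of 9 members (adjusted p from 0.176 to 0.955), and the groups overlapped. Of the 3 pathway lists described at the end, 1 gene was called between regions, the kinase gene Irak4 in the submucosal plexus (-0.75, adjusted p = 0.0347).

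Per kb of each gene's exon union, the order of the members in the untreated colon myenteric plexus was led by Il33 at 26.6 CPM per kb, Il18 at 15.8, Il1rap at 11.0 and Il1r1 at 2.70. In the small intestinal myenteric plexus it was Il1rap at 13.5, Il18 at 11.5, Il33 at 6.20 and Il1r1 at 1.55, where the first 3 did not differ beyond their spread between libraries. In the submucosal plexus of colon Il1b (49.1) and Il18 (48.1) led, followed by Il33 (12.4) and Il1rn (10.7), and in that of small intestine Il18 (30.5), Il1b (28.5), Il1r2 (22.8) and Il33 (20.2) were within each other's spread. The untreated myenteric libraries thus held mainly Il33, Il18 and Il1rap among the 9 genes, with the IL-1 agonists close to 0.

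**Figure D5:**
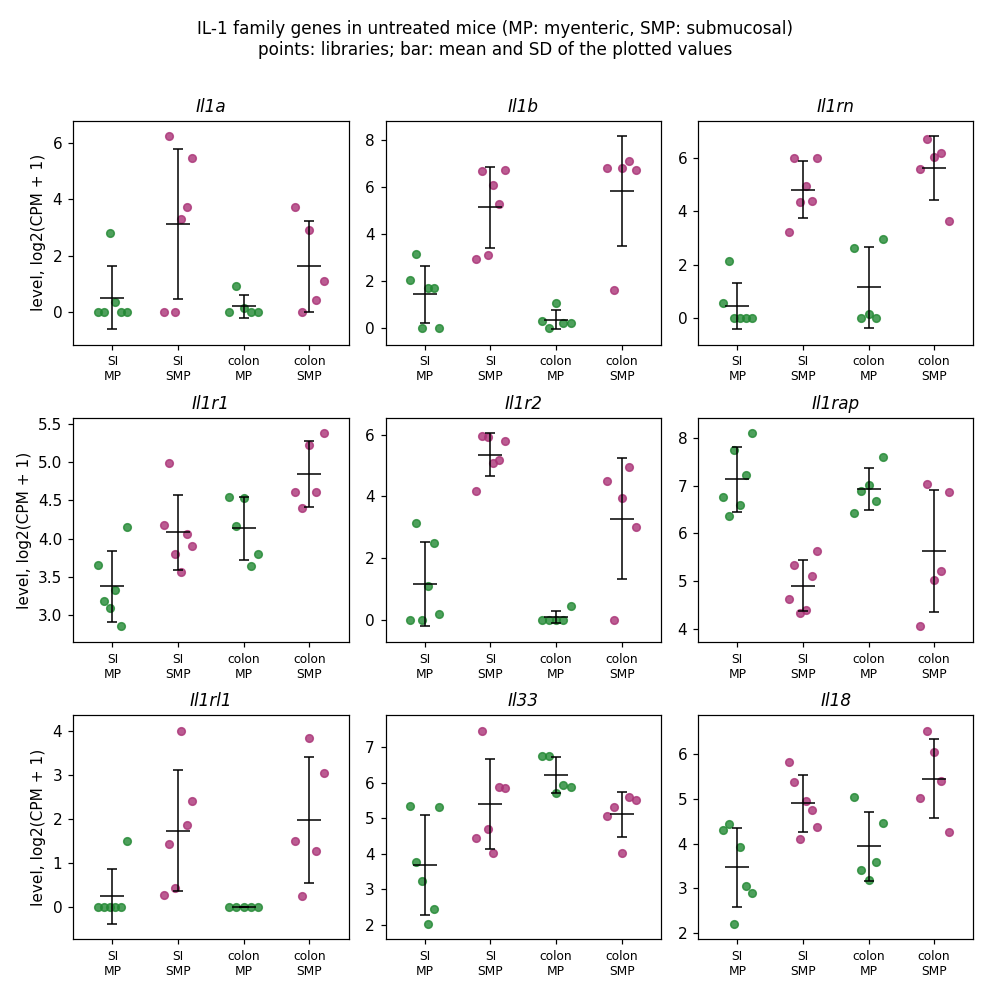
Levels of the 9 IL-1 family genes in the 22 untreated libraries as log2(CPM + 1), by region and layer; points are libraries, and bars give the mean and SD of the plotted values. Il1b, Il1rn and Il1r2 are higher on average in submucosal than in myenteric libraries, with 1 colon submucosal library at 0 for Il1r2, and Il1rap is lower in every submucosal library of small intestine.

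The other genes of the pathway were followed as 3 lists: 11 other family ligands, receptors and binding proteins, 13 genes of receptor signalling and 8 genes of inflammasomes and cytokine processing. At 2 h in small intestine 2 of 13 signalling genes rose: the adaptor Myd88 (2.75 ± 0.41, adjusted p = 0.00102, from a mean of 28.1 to 190 CPM) and Nfkbiz, an inducible NF-kappaB cofactor (3.72 ± 0.56, adjusted p = 0.00115, from 42.9 to 564 CPM). Of 6 inflammasome genes tested 1 rose, Casp4, which encodes the LPS-sensing caspase-11 (2.65 ± 0.57, adjusted p = 0.0281, from 16.6 to 105 CPM). In colon 1 of 13 signalling genes rose, Nfkbiz (2.96 ± 0.55, adjusted p = 0.0114, from 47.2 to 366 CPM), and 0 of 6 inflammasome genes. Of the 11 other family genes 3 were tested at 2 h, and edgeR called 0 in either region. These counts are to be read against the 1.1% and 0.778% of all genes called. The lists were chosen with earlier results of these data known, so such shares are a description and no test.

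At 24 h Casp4 was called higher with LPS in all 4 comparisons: 2.26 (adjusted p = 0.000306) in wild-type small intestine, 2.44 (adjusted p = 0.000912) in wild-type colon, 1.78 (adjusted p = 0.0418) in Gpr37-/- small intestine and 2.30 (adjusted p = 0.00554) in Gpr37-/- colon. It was the only one of 7 inflammasome genes tested that was called there. Irak3, which encodes an inhibitor of the receptor-associated kinases, rose in wild-type small intestine by 3.34 ± 0.45 (adjusted p = 9.81e-06, from 10.6 to 107 CPM), in wild-type colon by 1.54 (adjusted p = 0.0416) and in Gpr37-/- small intestine by 2.06 (adjusted p = 0.0338). Of the 13 signalling genes 3 were called in wild-type small intestine (Irak3, Myd88 at 1.40 with adjusted p = 0.000729, and the ubiquitin ligase gene Traf6 at 2.36 with adjusted p = 0.00775), 2 in wild-type colon (Irak3, and Nfkbiz at 2.29 with adjusted p = 0.0312), 1 in Gpr37-/- small intestine and 0 in Gpr37-/- colon, beside 7.17%, 7.96%, 0.718% and 0.718% of all genes. Il18bp, which encodes the soluble IL-18 binding protein, rose in wild-type small intestine by 1.51 (adjusted p = 0.0454) and in Gpr37-/- colon by 2.65 (adjusted p = 0.00786). Neutrophil markers were called higher in the same 4 comparisons, as given above, and their part in these changes was not tested.

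Between layers of untreated colon 4 of 7 inflammasome genes were called higher in the submucosal plexus: the sensors Nlrc4 (3.66) and Nlrp6 (3.02), the adaptor Pycard (2.90) and Casp1 (2.93), the caspase that cuts IL-1 beta and IL-18. None of 13 signalling genes and none of 6 other family genes tested were called there. In small intestine 6 of 7 inflammasome genes were called higher, the 5 largest differences being those of Pycard (4.26), Nlrc4 (4.24), Nlrp6 (3.75), Aim2 (3.27) and Casp1 (3.07). Of 13 signalling genes 4 were called higher, Myd88 (1.72), Irak2 (1.38), Irak4 (1.07) and Ikbkb (0.66), and of 6 other family genes 3, Il18rap (5.60), Il1rl2 (2.41) and Sigirr (1.29). These counts stand beside 21.8% of all genes called in colon and 43.5% in small intestine, where 4 of 13 is below and 3 of 6 near that share. The layer difference in marker sums given for the members applies to these genes too.

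Over the 37 libraries at 24 h, some of which share a mouse and all of which are mixtures of cells, the genes whose log2 levels were most like a member's were named by Pearson's r as a description. For Il1rn these were Saa1, an acute-phase protein gene (r = 0.870), the formyl peptide receptor gene Fpr2 (0.829) and the neutrophil calprotectin gene S100a8 (0.825). For Il18 they were Chst4 (0.812), the keratin gene Krt7 (0.803) and Perp (0.799), and for Il33 Dapk1 (0.879), Lmo2 (0.846) and Plpp1 (0.828). For Il1b they were Chil3 (0.746), Fpr1 (0.638) and Fermt3 (0.604), and for Il1r1 Gsta3 (0.821), Medag (0.809) and Errfi1 (0.792). For Il1rl1, which is at 0 in most libraries, the highest r was 0.599, with Nudt14.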

How the data were processed

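Raw counts per gene were used as the authors deposited them, in 1 table for untreated and 2 h libraries and 1 for 24 h libraries. Trim Galore 0.4.4, STAR 2.5.3, DESeq2 and build GRCm38 are named in the submitters' processing notes; the counter, annotation and use of strand are not given in the sources used here. The 9 members were taken by symbol, and the members and gene lists were chosen with earlier results of these data known. The 75 libraries were grouped by the labels into 16 groups. Each experiment was filtered with filterByExpr, scaled by TMM and fitted with all its groups in edgeR 4.0.16 (R 4.3.3), with the quasi-likelihood test for 17 comparisons and Benjamini-Hochberg adjustment over all genes tested (14090 untreated, 13107 at 2 h, 14903 at 24 h). The script was tested on simulated data. The standard error is the log2 fold change divided by the square root of F. All 9 members were named, up to 5 called genes of each other list with the largest change, and for 6 members the 3 genes most correlated with them above a mean log2 CPM of 3. Counting intervals and floors (3 counts) cover counting error only, since reads without molecular identifiers are not independent molecules. Alternatives were RLE size factors, no filter, DESeq2 1.42.0, sex as a covariate, the replicate block, only the groups compared, the mouse number split at 24 h, and leaving out each library. Replicate numbers of untreated and 2 h libraries were not taken as pairs, since in each comparison at least 1 same-numbered pair correlated weakly or negatively in its deviations from the group means (lowest r per comparison from -0.0965 to 0.0587). The mean over same-numbered pairs was nevertheless above that over other pairs in every comparison, so equal numbers may share something. Gene positions are from GENCODE and promoter sequences from RefSeq, both on GRCm38. One item of the labels and of the glia marker list is not reported here, and the glia sums were made without it.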

Additional observations from a re-analysis of the deposited data

Results flagged for a closer look

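Of 141 sets of a member's log2 CPM values in a group of 4 to 10 libraries, 22 held a highest or lowest library far from the rest. The rule was set for a chance rate of about 1 in 20 in normal values. That rate does not hold where most libraries are at 0, since 1 count can then flag a set. No excess over chance is therefore read from the 22. Most were low genes in which 1 library stood above the others, which were at or near 0. For Il1a these were untreated colon myenteric male 2 (0.907 CPM), untreated small intestinal myenteric male 3 (5.90, others at most 0.282), PBS colon female 1 at 2 h (1.63) and PBS small intestine male 2 at 2 h (0.487). For Il1rn they were untreated small intestinal myenteric male 2 (3.43), PBS small intestine male 4 at 2 h (0.120) and Gpr37-/- PBS small intestine mouse 15 at 24 h (3.64). For Il1r2 they were untreated colon myenteric female 3 (0.350), LPS colon male 2 at 2 h (0.200), LPS small intestine female 3 at 2 h (24.3) and Gpr37-/- PBS colon mouse 1 at 24 h (0.121). For Il1rl1 they were untreated small intestinal myenteric female 3 (1.85), PBS colon male 2 at 2 h (0.340), LPS small intestine female 3 at 2 h (0.130), wild-type PBS colon mouse 19 (0.681) and Gpr37-/- PBS small intestine mouse 12 (6.24). For Il1b it was PBS colon female 3 at 2 h (0.667).

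The others were libraries low in a gene the rest of the group held. Il1b was at 2.09 CPM in untreated colon submucosal male 3 against 104 to 139 in the other 4. Gpr37-/- PBS colon mouse 1 at 24 h had Il1r1 at 0 against 14.0 to 30.1 CPM and Il33 at 7.16 against 96.6 to 219 CPM. Il18 was at 1.85 CPM in Gpr37-/- LPS colon mouse 11 against 3.75 to 4.27, and at 2.79 in wild-type PBS colon mouse 14 against 3.79 to 3.86.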

How the results depend on the processing

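The counts of members called kept within 1.5 times the value of the main test except as follows (main test to alternative). With DESeq2 the count went from 0 to 2 for colon against small intestine in the myenteric plexus, from 0 to 1 for the 2 h interaction of region and LPS, from 1 to 2 in wild-type colon and from 1 to 3 in Gpr37-/- colon for LPS at 24 h, from 0 to 2 for the colon interaction of genotype and LPS and from 0 to 2 for Gpr37-/- against wild type after LPS in colon. With only the groups compared in the fit it went from 5 to 3 and from 8 to 5 between layers of colon and small intestine, and to 0 in wild-type colon, Gpr37-/- small intestine and Gpr37-/- colon. In those fits Il1r2 and Il1rl1 in colon layers, Il1a and Il1rl1 in small intestinal layers and Il1r2 in Gpr37-/- colon did not pass the filter and were not tested, so that of the layer calls only Il33 in small intestine was lost by its p (0.0705). It went to 0 in wild-type and Gpr37-/- colon without the filter and with a covariate for mice numbered 10 and below, to 0 in wild-type colon and Gpr37-/- small intestine with sex as a covariate, and, in mice numbered 11 and above alone, from 2 to 1 in wild-type small intestine (Il1r1, with Il1rn and Il1r2 lost) and to 0 in wild-type colon and Gpr37-/- small intestine; in Gpr37-/- colon it stayed at 1, with Il18 called in place of Il1r2. Leaving out 1 library gave 0 to 1 members for colon against small intestine in the myenteric plexus, wild-type colon, Gpr37-/- small intestine and Gpr37-/- colon. One called value reversed, Il18 in wild-type colon at 24 h, at -0.57 in mice numbered 11 and above alone; the alternative has fewer mice, and the cause was not tested. All 5 calls at 2 h were kept in the 6 other settings and the 8 fits that left out a library. The replicate block, which pairs untreated or 2 h libraries of the same number, gave 3 and 2 members called at 2 h in small intestine and colon, 6 and 7 between layers of colon and small intestine, with Il1rap in colon then called (-1.06, adjusted p = 0.0435 by edgeR) and Il1a in small intestine no longer called (adjusted p = 0.0672). The same-numbered libraries had mean correlations of deviations from 0.0213 to 0.184, against -0.0317 to -0.00439 for differently numbered ones. The best correlation was with the own number in 4 of 4 at 2 h in colon and 3 of 4 at 2 h in small intestine. It was so in 4 of 5 between regions of the untreated myenteric plexus, and for 2 libraries in each of the other untreated comparisons. No paired analysis was possible at 24 h because the PBS and LPS groups share no mouse. For all genes, DESeq2 called 261 instead of 144 at 2 h in small intestine and 277 instead of 102 in colon. Of 1992 further member values compared, 72 had the opposite sign and were called in neither fit, and 6 were called under the alternative. Depth limits the members with 1 to 4 counts in a group, whose fold changes have wide counting intervals.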
